A study of Mus musculus with 10 samples.

Results

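The tripartite motif (TRIM) genes encode a large family of ubiquitin ligases, and their transcripts were measured here in mouse kidneys after obstruction of the ureter. Members were taken from the deposited gene table as every protein-coding gene whose symbol is Trim followed by a digit, which gave 68 of 54532 genes. Of these, 14 were listed as linked to interferon, and 54 formed the rest of the family. The 14 were chosen as genes that interferon induces or that act in the sensing of viral RNA and DNA. The list does not hold every member with such a role. Trim6, which acts in interferon signalling, is among the 54. The kidneys came from male C57BL/6 mice, labelled WT, whose left ureter was ligated at 8 weeks of age (unilateral ureteral obstruction, UUO) and which were killed 14 days later. The DMM group received dimethyl malonate, an ester of malonate that inhibits succinate dehydrogenase, at 40 mg/kg by intraperitoneal injection every other day, and the control group received PBS. Both groups were obstructed, and no sham-operated kidney was analysed here. Bulk RNA-seq was done with 5 PBS and 5 DMM kidneys, 1 library for each mouse.

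Total counts per library ran from 16457495 to 18078777 in PBS kidneys and from 15722527 to 19475833 in DMM kidneys. Counts were scaled to library size as CPM with the TMM factors of edgeR. The deposited means of each group could be written as weighted sums of the libraries, and the weights of PBS replicate 3 and DMM replicate 1 came out as 0. Results are therefore given over the other 8 libraries, 4 for each group, and over all 10. Because the smaller set lies within the larger, their results are not independent. No reason for the weights is given in the sources used here, and whether a label is wrong was not tested. Both of these libraries, and DMM replicate 4, stood apart in ways that bear on the values. DMM replicate 1 lay inside the PBS range for 11 of the 13 interferon-linked TRIM genes that could be tested, and above DMM replicates 2 to 5 for 12 of them. PBS replicate 3 had levels of these genes close to those of the other PBS kidneys, but levels of tubule genes like those of DMM kidneys. DMM replicate 4 held the highest or the lowest value of all 10 libraries in 69.3% of 16505 tested genes, against 9.31% to 23.0% for each other library. Its TMM factor was 0.852, and the other factors were between 0.981 and 1.05.

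TRIM proteins are built from a RING finger, B-box domains and a coiled coil, followed by a variable end that binds the target. Many of them are induced by interferon and act in antiviral defence, either by marking viral parts for destruction or by adding ubiquitin to the sensors and adaptors that start the interferon response. Others have housekeeping roles in transcription, on microtubules or in membrane traffic, and an obstructed kidney holds both injured tubules and invading leukocytes in which such genes are active.

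TRIM transcripts took up a smaller share of all counts in DMM replicates 2 to 5 than in any PBS kidney. The share was 0.294%, 0.278%, 0.255%, 0.292% and 0.299% in PBS replicates 1 to 5. In DMM replicates 1 to 5 it was 0.290%, 0.215%, 0.209%, 0.222% and 0.199%. DMM replicate 1 was at the PBS level. The drop lay in the interferon-linked genes, whose summed level was 1168, 1035, 999, 1202 and 1257 CPM in PBS replicates 1 to 5 and 1156, 501, 481, 622 and 432 CPM in DMM replicates 1 to 5. DMM replicates 2 to 5 were all below the lowest PBS kidney, and DMM replicate 1 was among the PBS kidneys. The summed level of the other 54 members was 1644, 1654, 1553, 1606 and 1647 CPM in PBS kidneys and 1674, 1631, 1623, 1987 and 1601 CPM in DMM kidneys. These ranges overlapped, and the only DMM kidney far from the rest was replicate 4. In bulk tissue, fewer cells that express a gene and less of its RNA in each cell cannot be told apart.

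Over the 8 libraries, 48 members passed the filter on low counts, and 11 of them fell in DMM kidneys by more than 1.5-fold with an adjusted p below 0.05 (edgeR quasi-likelihood test, Benjamini-Hochberg adjustment over all tested genes). All 11 were interferon-linked, of which 13 were tested. The interferon list was written with earlier results of these data known, so this split is a description and no independent test. Among all 16550 tested genes, 3.56% were called lower. Of the other 35 tested members, 0 were called lower by edgeR and 4 were lower by more than 1.5-fold at an unadjusted p under 0.05 (7.24% of all tested genes), while DESeq2 called 2 of 44 others with an adjusted p lower, namely Trim6 and Trim29 (4.51% of all genes with an adjusted p). No member was called higher by edgeR (0, against 2.73% of all tested genes) or by DESeq2 (0, against 3.71%), and 0 were higher by more than 1.5-fold at an unadjusted p under 0.05 (6.45%). Without the fold threshold, 2 of the 48 members were higher at an unadjusted p under 0.05, Trim13 and Trim44, and 19 were lower, against 10.8% of all tested genes in each direction. The median log2 fold change was -1.62 for the 13 interferon-linked genes, -0.12 for the 35 others and 0.02 for all tested genes. In every one of the 13, DMM replicates 2 to 5 lay below all 4 PBS kidneys of the set, which held for 10.6% of all tested genes and for 8 of the 35 others. DMM lay above PBS in this way in 3 of the 35, against 9.45% of all tested genes.

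Over all 10 libraries, edgeR called 0 members lower and 0 higher, as it called 0% of all 16505 tested genes in either direction. By more than 1.5-fold and an unadjusted p below 0.05, 11 of 49 tested members were lower (4.11% of all tested genes), 10 of them interferon-linked, and 0 were higher (1.91%). DESeq2 called 0 members in either direction (0.201% lower and 0.0730% higher among the genes with an adjusted p). The median log2 fold change was then -1.05 for the interferon-linked genes, -0.07 for 36 others and 0.02 for all tested genes. DMM replicate 1 decided the count. Without it, with PBS replicate 3 kept, 10 members were called lower (2.60% of 16760 tested genes) and 0 higher (0.298%). All 10 were interferon-linked, and their list had a median log2 fold change of -1.57. When DMM replicate 4 was left out of the 8 libraries, 16 members were called lower (7.61% of 16828 tested genes) and 0 higher (6.71%). The 16 were 12 interferon-linked genes with Trim5, Trim6, Trim15 and Trim59.

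**Figure D1:**
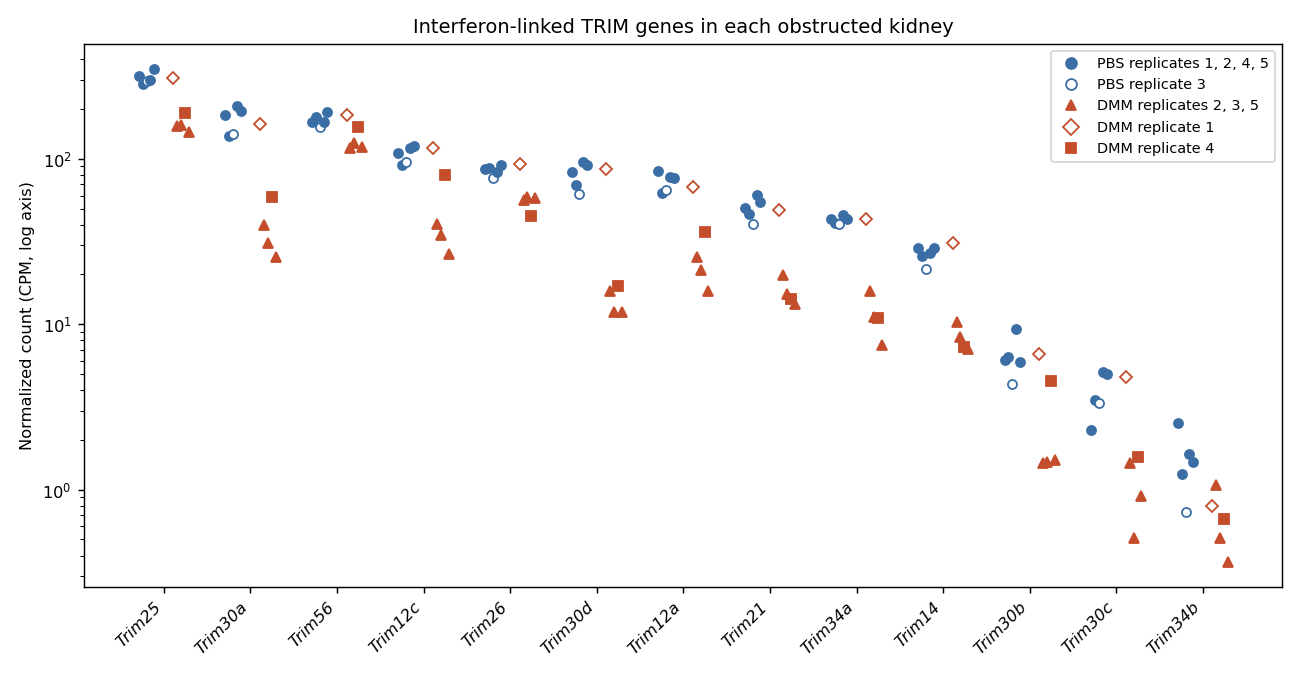
Normalized count (CPM, log axis) of each of the 13 tested interferon-linked TRIM genes in every library, ordered by the mean of the PBS kidneys, with circles for PBS and triangles, a diamond and a square for DMM. Trim25 was at 146 to 190 CPM in DMM replicates 2 to 5 and at 285 to 351 CPM in PBS kidneys, and DMM replicate 1, at 309 CPM, sits among the PBS kidneys.

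Among the members that act in RNA sensing, Trim25 encodes the ligase that adds ubiquitin chains to RIG-I, the sensor of viral RNA (chromosome 11, 88999376 to 89020293, GRCm38). Its level was 318, 285, 295, 301 and 351 CPM in PBS replicates 1 to 5. In DMM replicates 1 to 5 it was 309, 157, 161, 190 and 146 CPM. All PBS kidneys and DMM replicate 1 were high, and DMM replicates 2 to 5 were low with no overlap. The mean went from 314 ± 28.1 to 163 ± 18.8 CPM (SD, n = 4), a log2 fold change of -0.94 (SE, the standard error, 0.12, adjusted p = 0.00392, edgeR). Over all 10 libraries the log2 fold change was -0.69 (SE 0.20, adjusted p = 0.378, edgeR). By FPKM, which divides by gene length and allows levels to be compared between genes, Trim25 ranked 1 among the 68 members in PBS kidneys at 53.5 ± 4.52 FPKM (SD, n = 5). In DMM replicates 2 to 5 it ranked 6 at 28.2 ± 3.15 FPKM (SD, n = 4). Trim28, Trim47, Trim8, Trim30a and Trim44 followed it in PBS kidneys with mean FPKM of 45.4, 43.9, 42.2, 42.0 and 41.1, which differ from each other by less than the largest SD among them of 7.97.

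Trim14 encodes a protein without a RING finger that sits on mitochondria with MAVS, the adaptor of RIG-I. Its level was 29.1, 26.0, 21.6, 27.1 and 29.1 CPM in PBS replicates 1 to 5 and 31.0, 10.3, 8.39, 7.25 and 7.11 CPM in DMM replicates 1 to 5. DMM replicate 1 was the highest of all 10 kidneys, and the other DMM kidneys were below every PBS kidney. The log2 fold change was -1.75 over the 8 libraries (SE 0.15, adjusted p = 0.000363, edgeR) and -1.05 over all 10 (adjusted p = 0.391). Trim56 acts in the response to viral RNA and DNA, and its value was the nearest to 0 of the 13. It was at 168, 178, 155, 168 and 192 CPM in PBS kidneys and at 184, 116, 124, 156 and 118 CPM in DMM kidneys. DMM replicates 2 to 5 were below the PBS kidneys of the 8 libraries, but DMM replicate 4 was level with PBS replicate 3. With a log2 fold change of -0.46 (SE 0.13, adjusted p = 0.0628, edgeR) it was not called. Without DMM replicate 4 the value was -0.56 (adjusted p = 0.000681, edgeR), which missed only the fold threshold.

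Trim21 encodes a receptor inside the cell for the constant part of antibodies, which sends antibody-coated viruses to the proteasome. Its level was 50.7, 46.5, 40.3, 60.5 and 54.8 CPM in PBS replicates 1 to 5 and 48.9, 19.9, 15.3, 14.2 and 13.3 CPM in DMM replicates 1 to 5. The DMM kidneys other than replicate 1 were well below all PBS kidneys. The log2 fold change was -1.76 over the 8 libraries (SE 0.16, adjusted p = 0.000388, edgeR), or 3.40-fold lower, and -1.18 over all 10 (adjusted p = 0.378). Trim26, on chromosome 17 in the region of the major histocompatibility complex, was at 86.5, 87.8, 76.1, 83.8 and 91.9 CPM in PBS kidneys and at 93.4, 56.2, 59.0, 45.1 and 58.1 CPM in DMM kidneys. Again DMM replicate 1 was with the PBS kidneys, here above all of them. Its log2 fold change of -0.68 over the 8 libraries (SE 0.11, adjusted p = 0.0109, edgeR) was the smallest among the 11 calls, and the call was lost when PBS replicate 5 was left out.

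The largest pair of falls in the family was among the Trim30 genes. Trim30a encodes an inhibitor of Toll-like receptor signalling that is itself induced by it, and lies at 104409025 to 104465193 on chromosome 7. It was at 185, 138, 141, 209 and 196 CPM in PBS replicates 1 to 5. In DMM replicates 1 to 5 it was at 163, 39.6, 31.1, 59.1 and 25.6 CPM. DMM replicate 4 was the highest of the 4 low kidneys, still less than the lowest PBS kidney. The mean went from 182 ± 31.1 to 38.9 ± 14.7 CPM (SD, n = 4), a log2 fold change of -2.23 (SE 0.26, adjusted p = 0.0022, edgeR) or 4.69-fold lower. Over all 10 libraries it was -1.45 (SE 0.46, adjusted p = 0.385, edgeR). By FPKM, Trim30a went from rank 5 of the 68 members in PBS kidneys, at 42.0 ± 7.97 (SD, n = 5), to rank 13 in DMM replicates 2 to 5, at 9.38 ± 3.51 (SD, n = 4).

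Its neighbour Trim30d had the largest fall of all members over the 8 libraries. The level was 83.1, 69.8, 61.0, 95.5 and 92.0 CPM in PBS replicates 1 to 5 and 86.7, 16.0, 11.8, 17.0 and 11.9 CPM in DMM replicates 1 to 5. DMM replicates 2 to 5 lay close together, and DMM replicate 1 was in the middle of the PBS kidneys. The log2 fold change was -2.59 (SE 0.17, adjusted p = 0.000108, edgeR), or 6.02-fold lower, and -1.49 over all 10 libraries (SE 0.54, adjusted p = 0.388). Trim30b and Trim30c were weakly expressed. Trim30b was at 6.04, 6.30, 4.33, 9.31 and 5.94 CPM in PBS kidneys and 6.60, 1.45, 1.47, 4.53 and 1.52 CPM in DMM kidneys. Trim30c was at 2.28, 3.47, 3.32, 5.16 and 5 CPM in PBS kidneys and 4.81, 1.45, 0.51, 1.57 and 0.912 CPM in DMM kidneys. In both genes DMM replicate 1 was at the PBS level, and in Trim30b DMM replicate 4 was also above PBS replicate 3. Their log2 fold changes over the 8 libraries were -1.62 (adjusted p = 0.0473) and -1.84 (adjusted p = 0.0302, edgeR).

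Trim12a and Trim12c, with Trim5, are the mouse relatives of the primate gene TRIM5, whose product blocks retroviral capsids, and Trim34a and Trim34b are the relatives of TRIM34. Trim12a was at 84.6, 61.8, 64.7, 77.2 and 76.1 CPM in PBS replicates 1 to 5 and at 67.9, 25.4, 21.3, 36.1 and 15.8 CPM in DMM replicates 1 to 5. Trim12c was at 109, 91.3, 96.0, 117 and 119 CPM in PBS kidneys and at 116, 40.5, 34.6, 79.5 and 26.7 CPM in DMM kidneys. In both, DMM replicate 4 was the highest of the 4 low kidneys, and in Trim12c it came near the lowest PBS kidney. The log2 fold changes were -1.60 (SE 0.24, adjusted p = 0.0067) and -1.27 (SE 0.31, adjusted p = 0.0420, edgeR). Over all 10 libraries they were -1.13 and -0.84. Trim34a was at 43.1, 40.7, 40.1, 45.8 and 43.2 CPM in PBS kidneys and at 43.4, 15.9, 11.1, 10.9 and 7.54 CPM in DMM kidneys. The PBS kidneys and DMM replicate 1 were within 40.1 to 45.8 CPM, and the rest were at 15.9 CPM or less. Its log2 fold change was -1.93 over the 8 libraries (SE 0.21, adjusted p = 0.0013, edgeR) and -1.26 over all 10. Trim34b was at 0.365 to 2.54 CPM. It was the only tested interferon-linked gene in which DMM replicate 1, at 0.802 CPM, lay among DMM replicates 2 to 5. PBS replicate 3, at 0.731 CPM, was below DMM replicates 1 and 2 in this gene. Its log2 fold change of -1.40 was not called by edgeR (adjusted p = 0.0729), but DESeq2 called it lower, as edgeR did without DMM replicate 2 and without DMM replicate 4. Trim38, a regulator of innate signalling, had no more than 2 counts in a library and could not be tested.

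The calls of Trim12c and Trim30b were lost in 7 of the 8 fits that left 1 of the 8 libraries out, the exception being the fit without DMM replicate 4. That of Trim30c was lost without PBS replicate 2, 4 or 5 or DMM replicate 3 or 5. The other 7 of the 11 calls, those of Trim12a, Trim14, Trim21, Trim25, Trim30a, Trim30d and Trim34a, stayed in each of the 8 fits. Several members share transcript sequence, and the read length and the treatment of reads with several matches are not given in the sources used here. Of the distinct 50-base stretches in the annotated transcripts, 56.8% of those of Trim34b are also in Trim34a and 39.8% of those of Trim34a in Trim34b. The other members together shared 28.8% of those of Trim12c, 29.5% of Trim5, 7.86% of Trim12a, 7.49% of Trim30d and 5.98% of Trim30a. The closest single member shared 24.2%, 23.5%, 5.04%, 6.39% and 5.98% of them. The division of reads among these genes is therefore uncertain.

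**Figure D2:**
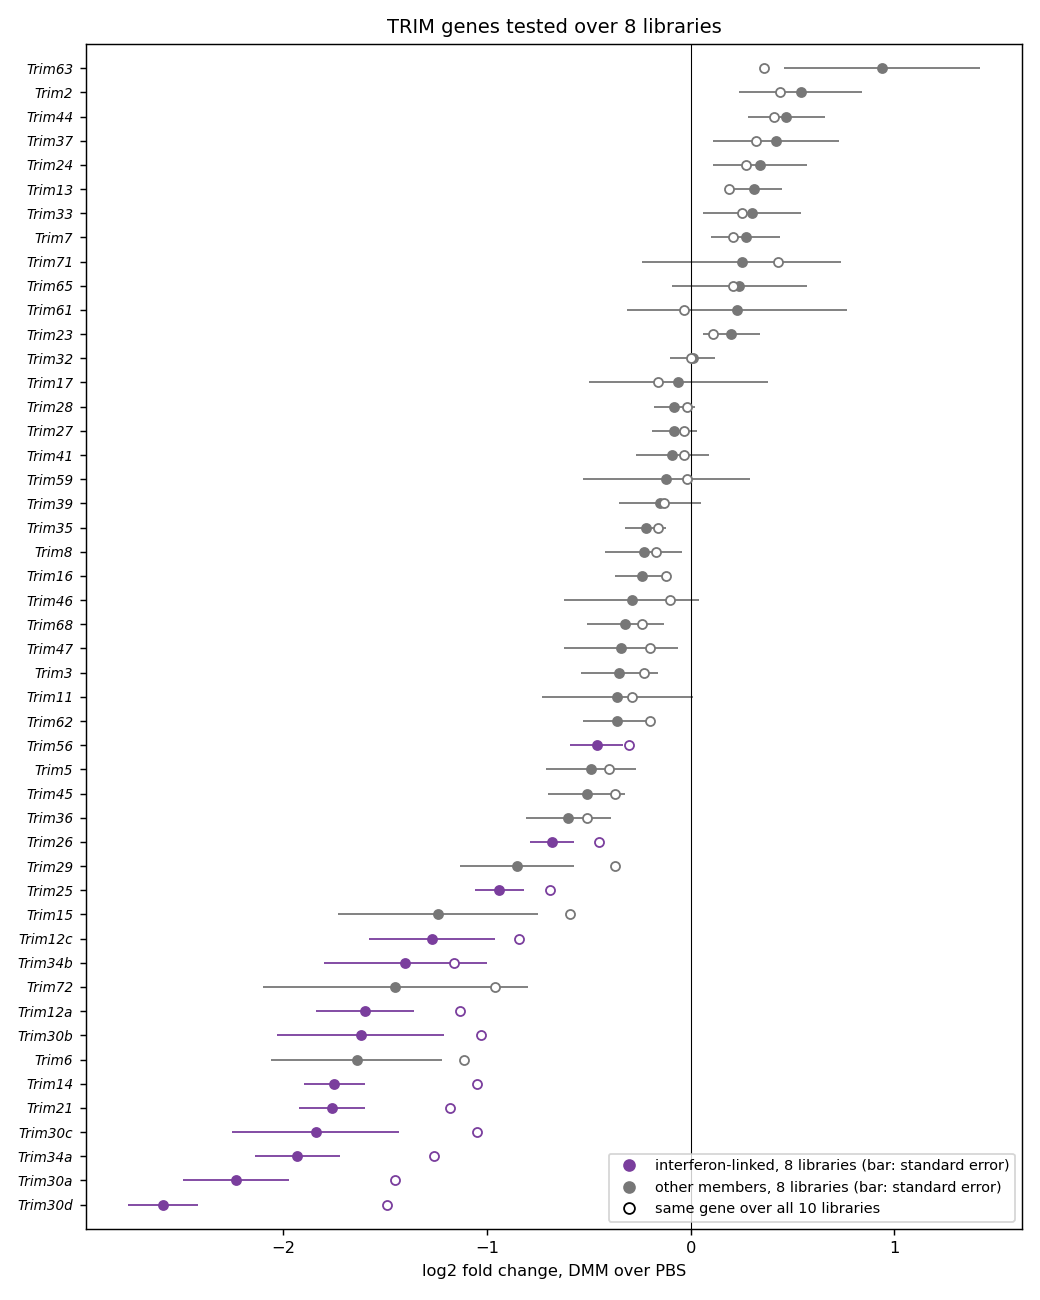
log2 fold change of DMM over PBS for the 48 members tested over the 8 libraries (filled points, bars show the standard error) and for the same genes over all 10 libraries (open points). The interferon-linked genes run from -2.59 for Trim30d to -0.46 for Trim56, and the others from -1.64 for Trim6 to 0.94 for Trim63.

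Of the members outside the interferon list, Trim6 had the lowest value. It encodes a ligase that makes free ubiquitin chains in interferon signalling, and was at 4.45, 4.06, 3.88, 5.64 and 4.35 CPM in PBS replicates 1 to 5 and at 4.44, 1.83, 2.32, 0.423 and 1.34 CPM in DMM replicates 1 to 5. DMM replicate 1 was at the PBS level and the others were lower. The log2 fold change of -1.64 (SE 0.42, adjusted p = 0.0501, edgeR) just missed the threshold, and was -1.33 (adjusted p = 0.00383) without DMM replicate 4. Trim29, a protein of epithelia, had a log2 fold change of -0.85 (adjusted p = 0.109), Trim15 -1.24 (adjusted p = 0.179) and Trim45 -0.51 (adjusted p = 0.163, edgeR), and none of them was called by edgeR over the 8 libraries, while DESeq2 called Trim29 lower. Without DMM replicate 4, edgeR called Trim15 lower (-1.65, adjusted p = 0.0277), and without PBS replicate 1 it called Trim29 lower. In Trim29 the levels were 4.24, 9.36, 4.10, 8.19 and 7.94 CPM in PBS kidneys against 9.75, 3.09, 4.31, 3.81 and 5.23 CPM in DMM kidneys, so that the groups overlapped.

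A pair of members kept the groups apart over all 10 libraries, and neither was called. Trim36, which binds microtubules, was at 8.95, 7.77, 6.58, 6.65 and 10.3 CPM in PBS replicates 1 to 5 and at 6.11, 4.03, 5.89, 5.86 and 6.38 CPM in DMM replicates 1 to 5. Every DMM kidney was lower than every PBS kidney, by a narrow margin, which held for 1 of 49 tested members and for 1.16% of all tested genes. Its log2 fold change was -0.51 over all 10 libraries (adjusted p = 0.388) and -0.60 over the 8 (adjusted p = 0.136, edgeR). Trim44, which encodes a protein without a RING finger, was at 239, 241, 232, 216 and 240 CPM in PBS replicates 1 to 5. In DMM replicates 1 to 5 it was at 254, 265, 280, 470 and 281 CPM. Every DMM kidney was higher than every PBS kidney, again in 1 of 49 tested members and in 0.794% of all tested genes, and replicate 4 was far above the rest. The log2 fold change of 0.47 over the 8 libraries (SE 0.19, adjusted p = 0.194, edgeR) went to 0.23 (adjusted p = 0.0219) without DMM replicate 4, which is under the fold threshold.

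The tested genes of the groups below were not called over the 8 libraries, and their medians depended on single libraries, mostly DMM replicate 4. The nuclear corepressors of the TIF1 group were tested for 3 of 4 genes, with 0 calls and a median log2 fold change of 0.30. The median was -0.04 without DMM replicate 4. It was 0.11 by DESeq2, which was run without the filter on low counts and so also covers the gene that edgeR did not test. Trim28, the corepressor of KRAB zinc finger proteins, was at 199, 191, 167, 206 and 188 CPM in PBS kidneys and 196, 186, 183, 197 and 174 CPM in DMM kidneys, with a log2 fold change of -0.08 (SE 0.10, adjusted p = 0.668, edgeR). The groups overlapped fully. The NHL group, whose end domain binds RNA or protein, was tested for 4 of 4 genes, with 0 calls and a median of 0.13, or -0.07 without DMM replicate 4. In this group Trim2 was at 81.9 to 97.5 CPM in PBS kidneys and at 96.5, 83.9, 112, 235 and 100 CPM in DMM kidneys, so that its log2 fold change of 0.54 (adjusted p = 0.336) went to 0.12 without DMM replicate 4. The COS-box group, which binds microtubules, was tested for 3 of 7 genes, with 0 calls and a median of -0.29, or -0.01 for the same 3 genes without DMM replicate 4. It was 0.26, 0.35 and 0.42 without DMM replicate 5, PBS replicate 2 and PBS replicate 5, where 4 genes of the group were tested. For the same 3 genes it was -0.44, -0.29 and -0.28 in these fits, without the change of sign. Trim63 of the COS-box group, the muscle ligase MuRF, was at 0.213 to 2.81 CPM. It had a log2 fold change of 0.94 (SE 0.48, adjusted p = 0.305, edgeR). The transmembrane group of Trim13 and Trim59 had 0 calls and a median of 0.10, or -0.22 without DMM replicate 4, when Trim59 was called lower. Scaling by library size alone turned the medians of the NHL and transmembrane groups to -0.01 and -0.04, but relative to all tested genes they went only from 0.11 to 0.09 and from 0.08 to 0.05. Trim13, a ligase of the endoplasmic reticulum, was at 10.5 to 12.6 CPM in PBS kidneys and at 9.88, 16.1, 13.2, 12.6 and 14.6 CPM in DMM kidneys, with a log2 fold change of 0.31 (adjusted p = 0.229, edgeR). Trim7, which binds glycogenin, had a log2 fold change of 0.27 (adjusted p = 0.418).

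DMM replicate 4 stood apart in the other members about as often as in all tested genes, at 63.9% against 69.3%. This library was the highest of the 10 in 10 of the 36 tested other members and the lowest in 13, against 33.6% and 35.7% of all tested genes. Among the 13 interferon-linked genes it was the lowest in 1 and the highest in 0. Trim8 was at 134 to 139 CPM in PBS kidneys and at 142, 139, 132, 72.1 and 128 CPM in DMM kidneys, with replicate 4 as the low one. Trim47 was at 110 to 141 CPM in PBS kidneys and at 136, 130, 115, 44.3 and 100 CPM in DMM kidneys. Trim65 overlaps Trim47 on the same strand and was high where Trim47 was low in this library, at 46.9 CPM against 16.0 to 23.7 CPM in the other 9. Trim59 was at 14.3 to 19.3 CPM in PBS kidneys and at 18.1, 10.1, 9.97, 32.9 and 8.51 CPM in DMM kidneys, and its log2 fold change was -0.12 (adjusted p = 0.900) with replicate 4 and -0.80 (adjusted p = 0.0023, edgeR) without it. Trim5, Trim59 and Trim65 were named after their values had been seen.

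Of the 68 members, 19 passed the filter in neither set of libraries, and Trim60 passed only over all 10, with at most 18 counts. The highest count among the 19 was 38, for Trim10 in DMM replicate 4. The muscle genes Trim54 and Trim55 and the neuronal genes Trim9 and Trim67 were among them. Trim52 and Trim54 had 0 counts in every library, which at 3 counts allows up to 0.154 to 0.191 CPM before TMM in a library, for counting error only. Some members overlap another tested gene, and whether the counting used strand is not given in the sources used here. Trim14 overlaps Nans and Trim28 overlaps Zbtb45 on the opposite strand. Trim30d overlaps the pseudogene Gm16464 on its own strand, whose log2 fold change was -1.96.

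Many of the called genes lie together. A stretch of 289 kb on chromosome 7, from 104218793 to 104507849 (GRCm38), holds 10 members in the order Trim6, Trim34a, Trim5, Trim12a, Trim34b, Trim12c, Trim30b, Trim30c, Trim30a and Trim30d, and all 10 were tested. Of these, 7 were called lower over the 8 libraries (3.56% of all tested genes), and the log2 fold changes of the other 3 were -1.64 for Trim6, -0.49 for Trim5 and -1.40 for Trim34b. Trim5 lies between Trim34a and Trim12a and had the value nearest 0, at 14, 10.2, 10.6, 9.68 and 12.2 CPM in PBS replicates 1 to 5 and 10.2, 7.56, 8.10, 11.2 and 5.84 CPM in DMM replicates 1 to 5. Its groups overlapped because of DMM replicates 1 and 4. The other 8 genes listed in the stretch are pseudogenes, small RNAs and antisense transcripts, of which 2 were tested, Gm15133 with a log2 fold change of -1.03 (adjusted p = 0.0628) and Gm16464 (adjusted p = 0.0147, edgeR). The remaining 4 called genes lie outside it, Trim21 at 102557921 to 102565486 on chromosome 7, Trim25 on chromosome 11, Trim14 on chromosome 4 and Trim26 on chromosome 17.

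**Figure D3:**
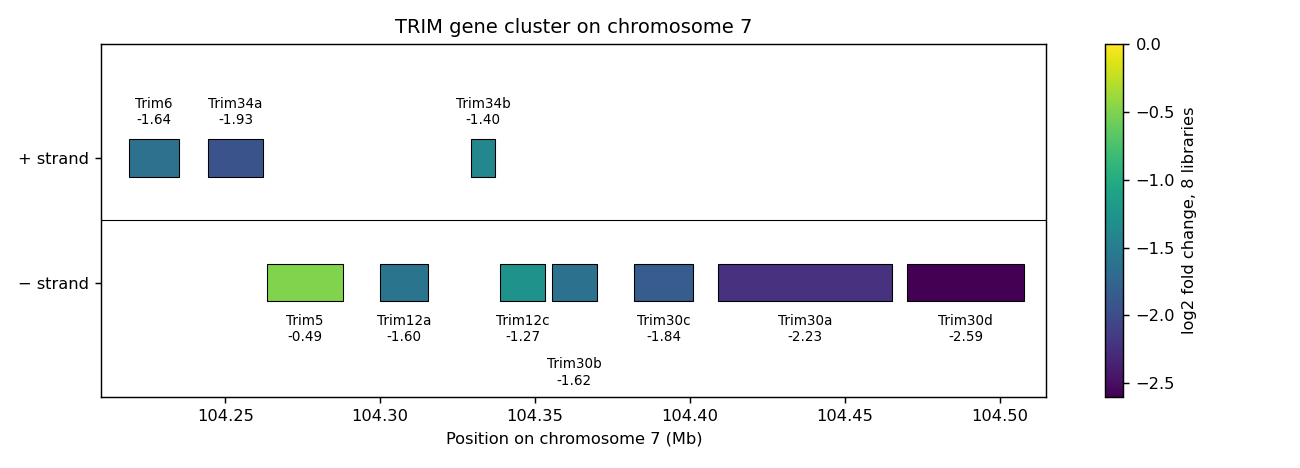
The 10 TRIM genes between 104218793 and 104507849 on chromosome 7 (GRCm38), drawn to scale by strand and coloured by log2 fold change of DMM over PBS over the 8 libraries. The values run from -2.59 for Trim30d to -0.49 for Trim5.

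Since most members of this stretch fell, the promoters of the family were searched for the letters of the interferon-stimulated response element. RefSeq promoter windows (build GRCm38.p6, 250 bases before to 50 after a RefSeq start) were matched for 53 of the 68 members, 13 of them interferon-linked. Those without an entry were Trim3, Trim8, Trim11, Trim14, Trim16, Trim17, Trim29, Trim33, Trim35, Trim43b, Trim43c, Trim50, Trim55, Trim65 and Trim36. A window within 100 bases of the gene start in the deposited table was there for 11 of the 13 and for 27 of the 40 others. The core of this element was searched as GAAANNGAAA on both strands, and is TTTCNNTTTC when read on the other strand. It was present in 7 of the 13 interferon-linked genes, namely Trim12a, Trim12c, Trim21, Trim26, Trim30a, Trim30d and Trim34a, and in 2 of the 40 others, Trim2 and Trim5. Among all 27025 genes with a window, 3.99% held it. The list was chosen in part by induction by interferon, so matches in it are no separate support. Those of Trim12a and Trim12c, and of Trim30a and Trim30d, lie in near-identical stretches and are not independent. The match of Trim2 lies 94067 bases inside the gene. By windows, it was in 57.1% of 14 interferon-linked windows, 3.77% of 53 windows of the others and 3.44% of all 32851 windows. The windows of Trim25, Trim30c, Trim34b and Trim56 held no match, which says only that these letters are not in them. The only windows of Trim30b and Trim38 are 11.2 and 12.6 kb inside the deposited gene, so that the starts of these genes were not searched.

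The stretches of 30 bases around the response element core are shown to compare members that fell with Trim5, which was not called over the 8 libraries but was called lower without DMM replicate 4. Each is from the strand of the gene, 5′ to 3′, with matches to GAAANNGAAA on either strand in capitals. The coordinates (GRCm38.p6) are chr7:102565447-102565476 for Trim21 (minus strand), chr7:104244457-104244486 for Trim34a (plus), chr7:104315466-104315495 for Trim12a (minus), chr7:104353359-104353388 for Trim12c (minus), chr7:104288136-104288165 for Trim5 (minus), chr7:104465210-104465239 for Trim30a (minus), chr7:104507871-104507900 for Trim30d (minus) and chr17:36836979-36837008 for Trim26 (plus).
Trim21: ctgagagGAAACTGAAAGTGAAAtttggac
Trim34a: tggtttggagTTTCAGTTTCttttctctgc
Trim12a: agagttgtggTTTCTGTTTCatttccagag
Trim12c: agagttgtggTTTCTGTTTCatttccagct
Trim5: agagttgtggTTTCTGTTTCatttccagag
Trim30a: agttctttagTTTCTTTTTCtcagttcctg
Trim30d: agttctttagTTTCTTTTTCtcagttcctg
Trim26: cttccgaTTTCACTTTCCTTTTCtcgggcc

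The stretch of Trim5 had the same letters as that of Trim12a at 30 of 30 positions, and that of Trim12c at 28 of 30. Over the 8 libraries, the log2 fold changes of these genes were -0.49, -1.60 and -1.27. Without DMM replicate 4, that of Trim5 was -0.68 (adjusted p = 0.0196, edgeR). Trim30a and Trim30d also had the same letters at 30 of 30 positions. In Trim21 and Trim26 there were 2 overlapping matches. Trim30a has 2 windows with a match, and the window at the annotated start of the gene is shown. Counted from the gene start in the deposited table, the match began 61 bases before Trim5, 19 bases before Trim12a, 16 bases before Trim12c, 36 bases before Trim30a and 41 bases before Trim30d. A match is a description of letters, and binding was not measured.

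The 150 bases before the start of Trim30a and of Trim30d, which had the largest falls and overlap no annotated exon there, are shown with the match in capitals. They lie at chr7:104465194-104465343 and chr7:104507850-104507999 (GRCm38.p6), both on the minus strand and written 5′ to 3′. The longest run that they share is 118 bases.
Trim30a: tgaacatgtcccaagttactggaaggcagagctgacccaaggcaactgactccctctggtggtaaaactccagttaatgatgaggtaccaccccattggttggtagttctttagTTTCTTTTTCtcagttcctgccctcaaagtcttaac
Trim30d: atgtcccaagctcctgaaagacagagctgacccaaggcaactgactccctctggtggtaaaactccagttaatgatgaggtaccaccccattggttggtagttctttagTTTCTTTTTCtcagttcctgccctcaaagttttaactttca

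The pathway in which these genes act was measured with a list of 36 genes of interferon signalling and the RIG-I pathway. Over the 8 libraries 29 of the 36 were called lower and 0 higher (3.56% and 2.73% of all tested genes), with a median log2 fold change of -2.24. Over all 10 the median was -1.45, and edgeR called 0 of the 36. Ddx58, which encodes RIG-I, the target of Trim25, was at 295, 257, 243, 323 and 311 CPM in PBS replicates 1 to 5 and at 300, 98.4, 91.0, 153 and 80.9 CPM in DMM replicates 1 to 5. Its log2 fold change was -1.49 (SE 0.20, adjusted p = 0.00447, edgeR). As in Trim25, DMM replicate 1 was with the PBS kidneys. The 7 genes of the list that were not called were Ifnar1 (0.06), Ifnar2 (-0.47), Jak1 (0.07), Tyk2 (-0.42), Mavs (0.33), Tbk1 (-0.23) and Irf3 (-0.09), with log2 fold changes over the 8 libraries in brackets. Without DMM replicate 4, Ifnar1 (-0.22), Jak1 (-0.09) and Irf3 (0.18) had the other sign and none of the 7 was called. In that fit some missed only the fold threshold, with an adjusted p below 0.05 (edgeR). These were Ifnar1, Ifnar2 (-0.40) and Tyk2 (-0.32), which were lower, and Irf3 and Mavs (0.44), which were higher. Ifnar2 missed only the fold threshold over the 8 libraries (adjusted p = 0.0489, edgeR). Other genes of the sensing of RNA and DNA were called lower, among them Ifih1 (-1.57), Mb21d1 (-1.47), Ikbke (-0.98) and Tmem173 (-0.66).

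TRIM proteins whose genes have other symbols were looked at in the same way. Pml, the interferon-induced organiser of nuclear bodies, was at 172, 154, 131, 182 and 184 CPM in PBS replicates 1 to 5 and at 169, 73.2, 73.6, 81.7 and 62.6 CPM in DMM replicates 1 to 5. DMM replicates 2 to 5 were lower than all PBS kidneys. It was called, with a log2 fold change of -1.25 (SE 0.12, adjusted p = 0.00058, edgeR). Of the 4 genes in this list it was the only call over the 8 libraries (3.56% of all tested genes), as Mid1 (0.26), Mid2 (0.49) and Mefv (-1.37, adjusted p = 0.179) were not called. Without DMM replicate 4 (7.61% of all tested genes called lower), Mefv was called as well (-1.92, adjusted p = 0.0193, edgeR), and Mid1 and Mid2 were at 0.00 and 0.13. The ubiquitin-conjugating enzymes that hand ubiquitin to TRIM ligases had 0 calls among 9 tested genes of 10, with a median log2 fold change of 0.11, or 0.00 without DMM replicate 4. Their summed level was 730 to 813 CPM in PBS kidneys and 772 to 943 CPM in DMM kidneys.

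Markers of several cell types moved with the interferon-linked TRIM genes, and their part in the result was not tested. Among all tested genes, the share called lower was 3.56% over the 8 libraries and 7.61% without DMM replicate 4. Over all 10 libraries, 0 genes of the marker lists were called. Of 9 macrophage markers, 2 were called lower over the 8 libraries, Cd68 and C1qb, against 6 without DMM replicate 4 and 1 without any other library (1.63% to 3.38% of all tested genes). The summed level was 2248, 2337, 1796, 2055 and 2451 CPM in PBS replicates 1 to 5 and 2129, 1502, 1207, 929 and 1221 CPM in DMM replicates 1 to 5, with Lyz2 as the most abundant gene. DMM replicates 2 to 5 were below every PBS kidney, and DMM replicate 1 was not. Of 9 T and NK cell markers, 1 was called lower, Cd4, which was also the most abundant. The count was 4 without DMM replicate 2, 3 without DMM replicate 4, 1 without PBS replicate 1 and 0 without any other library, where only 1.63% to 2.06% of all tested genes were called lower. The sums were 48.4, 49.9, 50.2, 40.8 and 71.5 CPM in PBS kidneys and 44.2, 37.9, 15.2, 21.9 and 22.1 CPM in DMM kidneys, again with replicate 1 at the PBS level.

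Among all tested genes, the share called higher was 2.73% over the 8 libraries and 6.71% without DMM replicate 4. Of 10 proximal tubule markers 4 were called higher, Lrp2, Cubn, Slc5a12 and Hnf4a, against 9 without DMM replicate 4, and Lrp2 was the most abundant. Their sum was 1993, 2007, 4818, 863 and 1571 CPM in PBS replicates 1 to 5 and 1457, 3909, 4751, 4509 and 5504 CPM in DMM replicates 1 to 5. PBS replicate 3 was here among the DMM kidneys and DMM replicate 1 among the PBS kidneys. Of 7 distal nephron markers 3 were called higher, Slc12a1, Slc12a3 and Calb1, against 5 without DMM replicate 4, 2 without DMM replicate 2, 3 without PBS replicate 1 and 0 without any other library, where only 0.774% to 1.17% of all tested genes were called higher. Umod was the most abundant gene. Their sums were 3112, 2588, 4298, 1956 and 1699 CPM in PBS kidneys and 2687, 4158, 4815, 1900 and 5172 CPM in DMM kidneys, which overlapped. Of 6 fibroblast and myofibroblast markers 1 was called lower, Postn, against 3 without DMM replicate 4. The sums, led by Col3a1, were 4587, 7035, 3633, 10864 and 6596 CPM in PBS kidneys and 8249, 3783, 2656, 5707 and 3037 CPM in DMM kidneys, with overlap. None of the markers in these 5 lists was at 0 in every library.

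The other marker lists had 0 calls over the 8 libraries. These were 4 endothelial, 4 B cell, 4 neutrophil, 4 erythroid, 4 proliferation and 5 skeletal muscle markers, with median log2 fold changes over the tested genes of -0.02, -0.36, -0.12, 1.46, 0.11 and -0.10. Without DMM replicate 4, 2 proliferation markers were called lower with a median of -0.72, and 3 erythroid markers were called higher, as they were without DMM replicate 2. The neutrophil median ran from -1.30 without DMM replicate 4 to 1.49 without PBS replicate 4. The B cell median was -0.72 without DMM replicate 2 and -0.14 without DMM replicate 4, and that of muscle comes from 1 tested gene. Myh4 and Tnnc2 of the muscle list were at 0 in every library. The proliferation sum was 777 CPM in DMM replicate 4 and 91.5 to 214 CPM in the other 9 libraries, and the erythroid sum was 702 CPM there against 125 to 547 CPM.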

How the data were processed

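The authors used mm10 for alignment (HISAT2 2.0.5, per the submitters' processing notes) and deposited the count of reads for each gene in every library, together with FPKM values, which divide counts by gene length and library size. The deposited table also holds the authors' group means, a signal of normalized counts, a gene length and annotation columns, and the log2 fold change and p-value columns of the authors' own comparison, which were not used. The deposited signal columns served only to find the libraries that enter the means. Columns of per-sample values left unused numbered 0.

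Genes were filtered with filterByExpr, scaled by TMM and tested by edgeR 4.0.16 (R 4.3.3) with the quasi-likelihood F test on raw counts over the whole table. Calls needed a fold change of more than 1.5 and a Benjamini-Hochberg adjusted p below 0.05. The standard error of a fold change was derived from its F statistic. The steps were tested on simulated data. Alternatives were DESeq2 1.42.0, RLE factors, library size alone, no filter, a CPM filter of 1, protein-coding genes alone, no fold threshold, the replicate number as a block, and leaving out each library. Named genes were every tested interferon-linked member, the 5 others of smallest p in each direction over the 8 libraries, the 5 of highest mean FPKM, and members whose groups did not overlap over all 10 libraries. The members and lists were chosen with earlier results of these data known. Reads carry no molecular identifiers, so depth covers counting error only. Tables were read with Python 3.11.15. Values of 1 gene in the lists and of another promoter motif that was searched are not reported here, though counts, medians and sums include the gene.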

Additional observations from a re-analysis of the deposited data

Results flagged for a closer look

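A library far from the other 4 of its group was seen in 15 of 56 groups of values tested for the named genes and the summed levels, where chance gives about 1 in 20. The groups are not independent, since interferon-linked genes move together. Of the 15, 10 are DMM replicate 1, 4 are DMM replicate 4 and 1 is DMM replicate 2.

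In DMM replicate 1, 8 interferon-linked genes and their sum were far above the other DMM kidneys. Trim25 was at 309 CPM against 146 to 190 CPM, Trim30a at 163 CPM against 25.6 to 59.1 CPM, and Trim30d at 86.7 CPM against 11.8 to 17.0 CPM. Trim14 was at 31.0 CPM against 7.11 to 10.3 CPM, Trim21 at 48.9 CPM against 13.3 to 19.9 CPM, and Trim26 at 93.4 CPM against 45.1 to 59.0 CPM. Trim34a was at 43.4 CPM against 7.54 to 15.9 CPM, and Trim30c at 4.81 CPM against 0.51 to 1.57 CPM. The summed level of the interferon-linked genes was 1156 CPM against 432 to 622 CPM. In the same library Trim63 was low, at 0.802 CPM against 1.93 to 2.33 CPM.

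In DMM replicate 4, Trim44 was at 470 CPM against 254 to 281 CPM in the other DMM kidneys, Trim2 at 235 CPM against 83.9 to 112 CPM, and the sum of the other TRIM genes at 1987 CPM against 1601 to 1674 CPM. Trim8 was low there, at 72.1 CPM against 128 to 142 CPM. In DMM replicate 2, Trim36 was at 4.03 CPM against 5.86 to 6.38 CPM. The cause of these differences was not tested.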

How the results depend on the processing

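Over the 8 libraries, 11 TRIM genes were called lower, all interferon-linked, and these 11 were kept with DESeq2, RLE factors, library size alone, no filter, the CPM filter and protein-coding genes alone. Leaving out 1 library gave 7 to 16 calls lower, of which 7 to 12 were interferon-linked and 0 to 4 were others. The 7 came without PBS replicate 5, when 1.63% of all tested genes were called lower, and the 16 without DMM replicate 4, when 7.61% were. The other members had 0 calls lower, against 2 with DESeq2 and 1 each with RLE factors, the CPM filter and protein-coding genes alone. Over all 10 libraries 0 were called lower, and leaving out 1 library gave 0 to 10, with 10 without DMM replicate 1. Calls higher were 0 in every fit run.

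With the replicate number as a block (replicate block), 0 were called lower over the 8 libraries, as were 0 of all 16550 tested genes, and the groups share only numbers 2, 4 and 5. The median log2 fold change of the interferon-linked genes was then -1.68, against -1.62. The sources used here name no pairing by number. Deviations from the group mean in same-numbered libraries gave correlations of -0.0525, 0.0928, 0.383, 0.141 and -0.263 for numbers 1 to 5. Of the 5 numbers, 1 was best matched with itself. Such correlations cannot exclude a pairing, since the libraries that stood apart also enter them.

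The median log2 fold change of the interferon-linked genes over all 10 libraries was -1.05, and -1.31 with the replicate block, with a range of -1.57 to -0.90 when 1 library was left out. Over the 8 libraries it was -1.62, and -1.78 with library size alone, which moved the median of all tested genes from 0.02 to -0.09, so that it was -1.69 relative to them. Its range was -1.74 to -1.48 when 1 library was left out. The median of the other members over the 8 libraries was -0.12, and -0.20 to -0.09 when 1 library was left out. It was -0.08 with DESeq2, which was run without the filter on low counts. With library size alone it was -0.24 (-0.15 relative to all tested genes), and with the replicate block it was -0.24. The log2 fold change of Trim28 over all 10 libraries, -0.02, turned to 0.00 without DMM replicate 5 and to 0.01 without PBS replicate 4, in a range of -0.07 to 0.01 when 1 library was left out. The cause of these shifts was not tested. The 26 genes named by rule kept their sign in all fits over the 8 libraries, while Trim65, named after its values were seen, went from 0.24 to -0.27 without DMM replicate 4.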
